A study of Caenorhabditis elegans with 2 samples.

Results

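The genes described are those that run mitosis in Caenorhabditis elegans: mitotic cyclins and kinases, kinetochore and spindle checkpoint proteins, spindle motors, centrosome proteins, condensin, cohesin and the anaphase promoting complex. They were a list of 60 gene names, listed by their known function, at a time when earlier results of these data were known. Of the 60 names, 59 matched a gene name among the 19973 protein-coding genes of the nuclear chromosomes. The name smc-1 matched none. The gene him-1, known as the worm gene for that cohesin subunit, was therefore kept out of the counts.

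The measurement was chromatin immunoprecipitation followed by sequencing (ChIP-seq) with an antibody against GFP. The strain carried mcd-1::TY1::EGFP::3xFLAG, a tag that CRISPR editing had inserted at the gene's own locus, and whole young adults were taken at an age of 65 hours, after synchronisation by bleaching and starvation of L1 larvae. There were 2 biological replicates of this 1 group, with no untagged or other control used here, so nothing is compared between conditions. In whole animals, more cells with the protein on a promoter and more protein per cell cannot be told apart.

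At mitosis the duplicated chromosomes, compacted by condensin and paired by cohesin, attach to the spindle through kinetochores. The spindle checkpoint holds back the anaphase promoting complex until every kinetochore is attached, after which the complex marks securin and mitotic cyclins for destruction and the cohesin link is cut. Worm chromosomes are holocentric, with kinetochores along their whole length. In the adult worm, which has no dividing somatic cells, mitosis is a property of the germ line and of the embryos it produces. MCD-1 is a zinc finger protein first known for its part in programmed cell death, where it overlaps in function with LIN-35, the worm's retinoblastoma protein.

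A gene was counted when the summit of a peak in the authors' conservative list, which holds 3903 peaks at an irreproducible discovery rate (IDR) of 0.01, lay from 1000 bp upstream to 200 bp downstream of its annotated 5′ end. Of the 59 genes, 42 (71.2%) had such a summit, against 2636 of 19973 protein-coding genes (13.2%). When each summit was given only to the gene with the nearest 5′ end, 27 of the 59 genes (45.8%) kept one, against 9.71% of all protein-coding genes. Of the 10896 genes with a name of the letters-and-number form 16.7% had a summit. None of the 59 lies on the X chromosome, where 7.54% of genes had a summit; on the autosomes 14.1% did. The 42 genes had 42 different strongest peaks, so no pair of them shared one.

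The strength of a peak is given as a multiple. In each replicate, the authors' signal of the matching peak in that replicate's own ranked list was divided by that replicate's median signal at conservative peaks (87.3 for replicate 1, 66.7 for replicate 2). Over the 42 genes the multiple of the strongest peak had a median of 1.65. It was 1.28 over the 2102 conservative peaks near any promoter, which include second, weaker peaks of a gene. Of the 42 multiples, 31 were above 1, where the median over all conservative peaks was 1.00. Scaled to the median over peaks near promoters, 24 of the 42 were above 1. Of the 42 peaks, 17 (40.5%) were among the strongest 25% of the conservative list and 3 (7.14%) among the weakest 25%, against 34.8% and 17.2% of the peaks near any promoter. The mitotic genes thus differed from all genes more in how many had a peak than in its strength, and their peaks ran from rank 90 to rank 3460 of the 3903. Errors are the SD of the 2 multiples. The replicates lay over 2-fold apart at 1 of the 42 peaks (2.38%), against 4.75% of the peaks near any promoter.

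**Figure D1:**
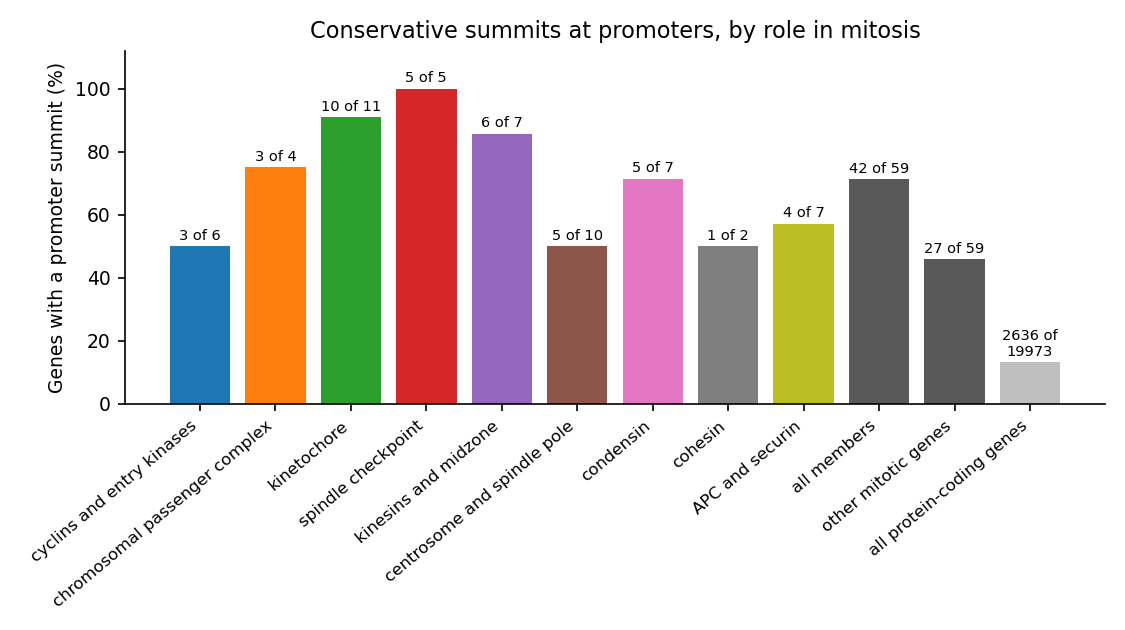
Percentage of genes with a conservative summit in the promoter window (bars, vertical axis from 0), with the number of genes above each bar, for the 9 role groups, all 59 members, a list of other mitotic genes and all protein-coding genes. Spindle checkpoint and kinetochore genes reached 5 of 5 and 10 of 11, cyclins and entry kinases and centrosome genes 3 of 6 and 5 of 10, and all protein-coding genes 13.2%.

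The DNA under the summits is shown first for genes whose window, the summit and 50 bp on either side, held the letters GAGCG on either strand. These letters were already known from earlier results to be frequent under the peaks of these data. The sequences are from RefSeq's WBcel235 assembly (ce11), 5′ to 3′ in the direction of the named gene, and capitals mark GAGCG or its reverse complement CGCTC. The windows lie at chrII:5055316-5055416 (minus strand) for ify-1, chrIV:7039618-7039718 (plus strand) for klp-18, chrIV:10085837-10085937 (plus strand) for ndc-80, chrII:7781241-7781341 (plus strand) for spdl-1. Those of the other genes shown are at chrII:5649579-5649679 (plus strand) for zyg-1, chrIII:8250433-8250533 (plus strand) for knl-1, chrV:15395489-15395589 (plus strand) for cyb-3, chrV:11644287-11644387 (plus strand) for bir-1.
ify-1: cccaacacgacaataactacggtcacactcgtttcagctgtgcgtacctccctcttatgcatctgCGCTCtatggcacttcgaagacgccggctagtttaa
klp-18: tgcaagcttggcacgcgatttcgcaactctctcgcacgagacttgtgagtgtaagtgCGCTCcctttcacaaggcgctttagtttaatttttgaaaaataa
ndc-80: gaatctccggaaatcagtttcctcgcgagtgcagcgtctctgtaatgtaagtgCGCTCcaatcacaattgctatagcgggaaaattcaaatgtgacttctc
spdl-1: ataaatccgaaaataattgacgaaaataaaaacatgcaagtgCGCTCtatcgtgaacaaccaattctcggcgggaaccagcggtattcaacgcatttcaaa
zyg-1: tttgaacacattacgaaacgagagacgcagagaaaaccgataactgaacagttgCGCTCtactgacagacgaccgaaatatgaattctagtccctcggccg
knl-1: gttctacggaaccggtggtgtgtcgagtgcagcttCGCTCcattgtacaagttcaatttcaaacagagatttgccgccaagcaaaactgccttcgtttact
cyb-3: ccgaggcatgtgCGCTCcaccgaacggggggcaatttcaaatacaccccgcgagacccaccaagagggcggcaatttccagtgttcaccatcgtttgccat
bir-1: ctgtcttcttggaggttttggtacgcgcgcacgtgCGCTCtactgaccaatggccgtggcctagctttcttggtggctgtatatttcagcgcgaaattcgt
GAGCG was found in 16 of the 42 windows (38.1%), against 36.3% of the windows at summits near any promoter and 5.27% of windows placed at the typical summit position, -175 bp, of the 17337 genes without a summit. The mitotic genes were thus like other bound promoters in this respect. The median distance from the summit to the centre of the nearest GAGCG was 9.5 bp in the 16 windows, of which 13 (81.2%) had it within 20 bp, against 16 bp and 60.5% at summits near any promoter. The 16 peaks with GAGCG had a median multiple of 1.82 and the 26 without it 1.23, with ranges that overlap almost completely (0.587 to 11.0 with it, and 0.571 to 11.5 without it).

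E2F-like letters and the CHR-like TTTGAA were more frequent under the members' summits than at other bound promoters, a difference that was not tested. Genes of the cell cycle in animals commonly carry sites for E2F and CHR elements, through which the DREAM complex (in worms DRM) acts; TTCCCGC and the alternative TTCGCGC were searched as E2F-like words, TTTGAA and the rarer TTCGAA as CHR-like ones, each on both strands, so that matches can overlap. The windows below were chosen because they hold these letters. Capitals mark the E2F-like words and TTTGAA, or their reverse complements, and all else is as above. The windows lie at chrV:6593849-6593949 (plus strand) for hcp-1, chrIII:9617086-9617186 (minus strand) for hcp-3, chrV:1868750-1868850 (plus strand) for knl-3. Those of the other genes shown are at chrIV:10734673-10734773 (plus strand) for cyb-1, chrII:13725918-13726018 (plus strand) for bub-3, chrIII:13307239-13307339 (minus strand) for klp-19.
hcp-1: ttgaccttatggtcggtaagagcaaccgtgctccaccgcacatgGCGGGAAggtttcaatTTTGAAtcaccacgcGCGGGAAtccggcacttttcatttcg
hcp-3: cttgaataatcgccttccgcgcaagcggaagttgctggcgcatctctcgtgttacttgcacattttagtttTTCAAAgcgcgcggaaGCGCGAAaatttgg
knl-3: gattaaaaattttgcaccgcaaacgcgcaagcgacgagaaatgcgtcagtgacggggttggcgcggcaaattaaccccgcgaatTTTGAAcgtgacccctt
cyb-1: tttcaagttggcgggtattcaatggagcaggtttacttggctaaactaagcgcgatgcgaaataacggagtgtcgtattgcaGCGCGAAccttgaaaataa
bub-3: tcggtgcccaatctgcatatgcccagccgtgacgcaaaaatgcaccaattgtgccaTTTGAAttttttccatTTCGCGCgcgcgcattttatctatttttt
klp-19: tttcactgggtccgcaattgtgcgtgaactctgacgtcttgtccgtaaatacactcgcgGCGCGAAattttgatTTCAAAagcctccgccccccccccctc
Either E2F-like word was present in 14 of the 42 windows (33.3%), against 9.23% of windows at summits near any promoter and 1.51% of windows of genes without a summit. TTTGAA was present in 22 of the 42 (52.4%), against 20.6% at summits near any promoter, but it is also common in genes without a summit (30.1%), whose windows have fewer G and C letters. An E2F-like word and TTTGAA occurred together in 8 of the 42 windows (19%), against 3.24% at summits near any promoter and 0.358% in genes without a summit. TTCGAA was present in 5 of the 42 windows (11.9%), against 6.37% at summits near any promoter and 6.45% in genes without a summit. With 100 bp on either side of the summit it was in 12 (28.6%), against 15.1% at summits near any promoter. CTGCGTC, another word searched, was present in 2 (4.76%), against 9.56% at summits near any promoter. None of the 6 words was in 10 of the 42 windows (23.8%), against 40.4% at summits near any promoter and 59.7% in genes without a summit. The mean GC content was 47.6% in the members' windows, 47.7% at summits near any promoter and 33.9% in windows of genes without a summit. A match of this kind is a run of letters and not evidence that a factor binds.

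For comparison, the next windows belong to 2 members without a summit, cut at the same -175 bp from the 5′ end. Capitals mark any of the 6 words; cdk-1 has none of them and zyg-9 has TTCGAA. They lie at chrIII:9747247-9747347 (plus strand) for cdk-1, chrII:8457593-8457693 (plus strand) for zyg-9.
cdk-1: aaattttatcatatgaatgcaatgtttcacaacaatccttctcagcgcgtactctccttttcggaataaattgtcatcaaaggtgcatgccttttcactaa
zyg-9: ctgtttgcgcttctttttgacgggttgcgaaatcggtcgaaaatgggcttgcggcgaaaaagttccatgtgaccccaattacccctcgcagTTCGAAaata
Of the 17 members without a summit, 2 had GAGCG in this window, 2 had an E2F-like word, 5 had TTTGAA and 9 had none of the 6 words. The shares over all 17337 genes without a summit were, in the same order, 5.27%, 1.51%, 30.1% and 59.7%.

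Kinetochore genes held 8 of the 17 members' peaks among the strongest 25% of the conservative list. Of the 11, 10 had a summit, the median multiple was 3.12, and 5 of the 7 strongest peaks among all members were theirs. The strongest stood at zwl-1 (WBGene00021460), which encodes Zwilch, a subunit of the complex that brings dynein and the checkpoint proteins to kinetochores. Its multiples were 11.98 and 11.03 (11.5 ± 0.673, n = 2), rank 90 of the 3903 peaks, and the peak spanned 2401467 to 2401832 on chromosome I. The summit was at -577 bp from zwl-1 and at -161 bp from dot-1.1 on the other strand, so dot-1.1 is the nearer gene.

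The next peaks belonged to components of the inner and outer kinetochore. At knl-3 (WBGene00020392), a subunit of the complex that joins the centromere to the outer kinetochore, the multiples were 8.18 and 7.90 (8.04 ± 0.199). At hcp-1 (WBGene00001829), which encodes a protein related to CENP-F, they were 7.69 and 6.21 (6.95 ± 1.05). At hcp-3 (WBGene00001831), the gene for the centromeric histone CENP-A, they were 7.53 and 5.46 (6.497 ± 1.46), with the summit far upstream at -666 bp. No other gene's window held these 3 summits, at -413, -295 and -666 bp from their own genes. The E2F-like and CHR-like letters printed above for hcp-1 and hcp-3 lie under 2 of these 3 peaks. The microtubule-binding ndc-80 (WBGene00003576) had multiples of 4.35 and 4.07 (4.21 ± 0.201), and both of the replicates of these 4 genes lay above every value of the kinetochore genes that follow.

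The other kinetochore peaks were weaker, although those of knl-1, hcp-4 and spdl-1 were still among the strongest 25% of the conservative list. The scaffold knl-1 gave 2.02 ± 0.417, and hcp-4, the gene for CENP-C, gave 1.97 ± 0.241 at -748 bp, with pgk-1 on the other strand and a weaker second summit at -951 bp (0.473 ± 0.0418). The dynein adaptor spdl-1 gave 1.89 ± 0.651, with its summit nearer to snpc-1.1 than to spdl-1. At knl-2, needed to load CENP-A, the multiple was 1.302 ± 0.101 and the summit lay 8 bp downstream of the 5′ end. The peak of rod-1, whose product acts with Zwilch, had multiples of 1.26 in replicate 1 and 0.510 in replicate 2, a ratio of 2.47, the one pair over 2-fold apart. The paralogue of hcp-1, hcp-2, had no summit, and its nearest conservative summit was at -5376 bp. The 5′ end closest to that summit was that of atl-1, upstream of hcp-2 on the other strand across a gap of 263 bp. The summit thus lay far from both gene starts. The strongest ranked peak in the window of hcp-2 had a signal of 14.1, the lowest found at a member. The paralogous genes hcp-1 and hcp-2 thus stood far apart. With a window of 500 bp upstream to 100 bp downstream, 6 of the 11 kinetochore genes had a summit, since those of hcp-3, hcp-4, zwl-1 and rod-1 lie farther out.

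**Figure D2:**
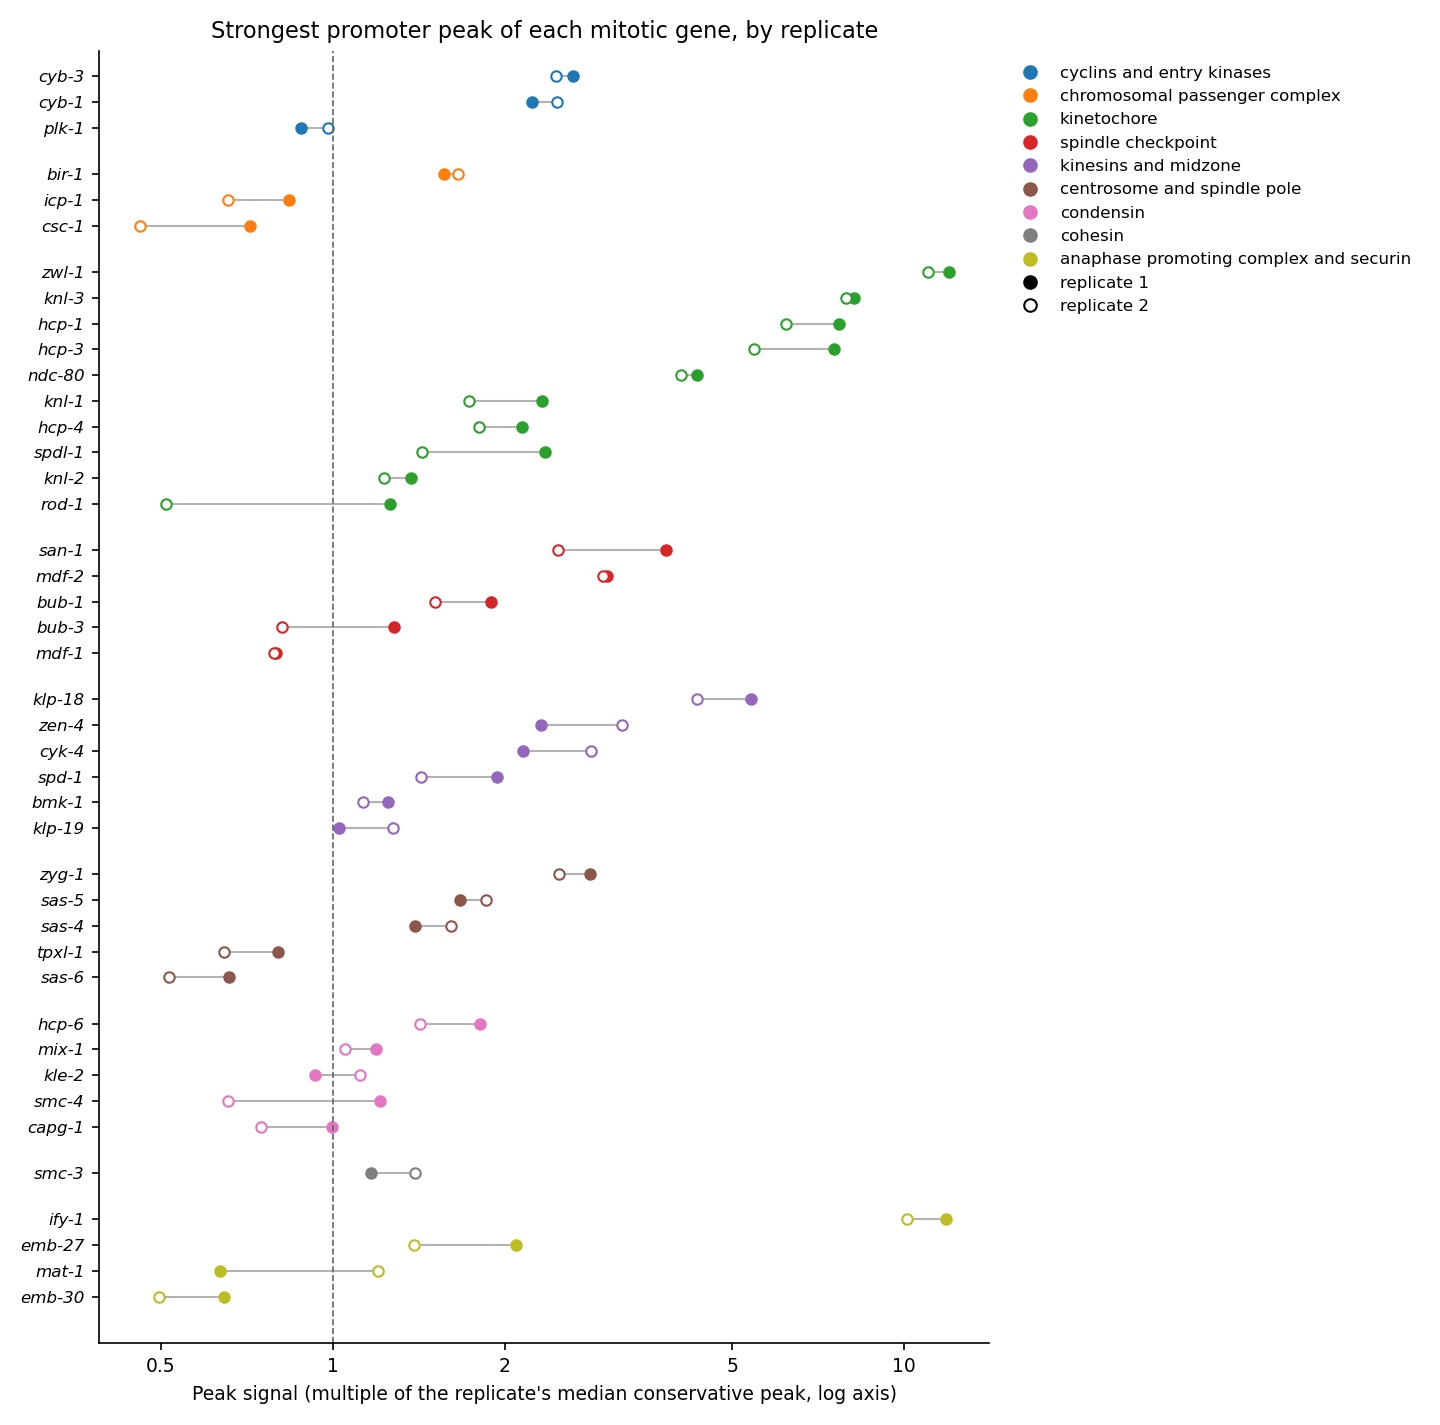
Signal of the strongest promoter peak of each of the 42 genes as a multiple of the replicate's median conservative peak (horizontal log axis), in replicate 1 (filled circles) and replicate 2 (open circles), coloured and grouped by role; the dashed line marks a multiple of 1. The pairs of zwl-1, knl-3, hcp-1, hcp-3 and ndc-80 in the kinetochore group and those of klp-18 and ify-1 lie above 4 in both replicates, and the pair of rod-1 is the widest.

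All 5 spindle checkpoint genes had a summit. The strongest were those of san-1, the worm Mad3 homologue (3.83 and 2.48; 3.15 ± 0.956), and mdf-2, the Mad2 homologue (3.02 and 2.97; 3.00 ± 0.0400), followed by the kinase gene bub-1 (1.70 ± 0.266). The order of san-1 and mdf-2 differs between the replicates, so their levels cannot be ranked. The peak of bub-3, a partner of bub-1, gave 1.05 ± 0.327, and that of mdf-1, the Mad1 homologue, gave 0.791 ± 0.00411. The summits of all 5 were nearest to their own 5′ ends, between -211 and -49 bp. Those of san-1, mdf-2, bub-1 and bub-3 also lay in the window of a gene on the other strand (ZC328.5, nduv-3, lin-61 and Y54G9A.7). In none of the other 8 groups did every gene have a summit.

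Of the 7 genes for spindle motors and midzone proteins, 6 had a summit. The kinesin klp-18, which organises the acentrosomal spindle of oocyte meiosis, had multiples of 5.39 and 4.35 (4.87 ± 0.741), with the summit at -543 bp and only -88 bp from cogc-2 on the other strand. A second summit at -342 bp gave 1.26 ± 0.251. The genes for the 2 subunits of centralspindlin, which bundles the midzone and triggers cytokinesis, had similar values: zen-4, a kinesin, gave 2.76 ± 0.629 and its partner cyk-4 gave 2.49 ± 0.477, with a summit shared with pdr-1. Both were higher in replicate 2, unlike 31 of the 42 genes, at which the multiple of replicate 1 was the higher. Among peaks near any promoter with a value in both replicates, replicate 1 was the higher at 1207 of 2084.

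The microtubule bundler spd-1 gave 1.68 ± 0.362 at -964 bp, the farthest summit of any member, and that summit is at -43 bp from Y34D9A.3. The kinesin gene bmk-1 gave 1.19 ± 0.0854, with coh-3 nearer, and the chromokinesin klp-19 gave 1.15 ± 0.177 at -30 bp. The microtubule depolymerase klp-7 had no summit in its window and no ranked one, but a conservative summit with a signal of 163 lay inside the gene, 1495 bp downstream of its outermost 5′ end. When the 5′ end of any annotated transcript was allowed, that summit counted and the group had no gene without one. When summits went to the nearest gene only, 2 of the 7 genes, zen-4 and klp-19, kept theirs.

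Cyclins and entry kinases split evenly, with 3 of 6 genes bound. The B3 cyclin cyb-3 gave 2.63 and 2.46 (2.54 ± 0.121) and the B-type cyclin cyb-1 gave 2.23 and 2.47 (2.35 ± 0.167), at -493 bp with orc-5 the nearer gene. The Polo-like kinase plk-1 gave 0.929 ± 0.0717. The cyclins cyb-2.1 and cyb-2.2 and their partner kinase cdk-1 had no summit. The paralogous cyb-2.2 had no ranked peak in its window either, cyb-2.1 had a ranked peak with a signal of 54.8, and cdk-1 one of 52.5 at -112 bp. The nearest conservative summit to cdk-1 was 1403 bp downstream of its 5′ end, beyond the gene, with a signal of 113 and closest to T05G5.4.

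Of the 4 genes of the chromosomal passenger complex, which corrects faulty attachments, 3 had a summit. The Survivin homologue bir-1 gave 1.56 and 1.65 (1.61 ± 0.0640), icp-1, which encodes the scaffold INCENP, gave 0.748 ± 0.129, and csc-1, which encodes a subunit that targets the complex, gave 0.588 ± 0.182. The last summit was at -208 bp from csc-1 and at -192 bp from fbxc-23 on the other strand. The gene of the complex's kinase, air-2 (Aurora B), had no summit and no peak in its window in the ranked list behind the conservative one. Replicate 1 alone had a peak there, at 0.524 times its median. The peaks of this group were the weakest of the 9 groups, with a median multiple of 0.748. Only bir-1 of the 4 genes had a peak at or above the median signal of the list.

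Of the 10 centrosome and spindle pole genes, 5 had a summit. Among the genes for centriole duplication, zyg-1, the kinase that starts duplication, gave 2.81 and 2.49 (2.65 ± 0.228), sas-5 gave 1.76 ± 0.134, sas-4 gave 1.501 ± 0.155 and sas-6 gave 0.587 ± 0.0991. The last 3 encode structural proteins of the new centriole. The summit of sas-4 lay at -684 bp and at -12 bp from F10E9.11 on the same strand, so F10E9.11 is the nearer gene. That of sas-6 lay at -90 bp from its own 5′ end and -86 bp from that of Y45F10D.7. The owner of the sas-6 peak cannot be settled by position. The nearest gene rule left 3 of the 10 centrosome genes, as did the requirement of a peak at or above the median signal. Neither replicate's own list had a summit in the window of sas-6.

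Of the other 6 genes of the group, tpxl-1, which activates Aurora A, had a summit, at 57 bp downstream of the 5′ end (0.722 ± 0.111). The kinase itself, air-1, had none, nor had the scaffold genes spd-2 and spd-5 or the microtubule regulators zyg-9 and tac-1; the ranked peaks at air-1 and tac-1 had signals of 25.32 and 17.14. At spd-5 this rests on the edge of the window: a strong summit, with a signal of 579 and rank 469, lay 237 bp downstream of its annotated 5′ end and was nearest to spd-5. That summit is stronger than the peak of any of the 5 centrosome genes that were counted. At spd-2 and zyg-9 the ranked peaks in the window had signals of 68.5 and 64.3 with a −log10 IDR of 1.65 each, short of the 2.00 that the list requires, and zyg-9 had a conservative summit of signal 125 inside the gene, at 2971 bp.

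Condensin genes had a summit in 5 of 7 cases, all of modest strength (0.874 to 1.61, median 1.02), and 3 of the 7 had one in the list of replicate 2 alone, under the nearest gene rule or when a peak had to reach the median signal. The strongest was that of hcp-6, a subunit of condensin II (1.61 ± 0.272), followed by the SMC gene mix-1 (1.12 ± 0.0966), kle-2 of condensin II (1.02 ± 0.131), the SMC gene smc-4 (0.932 ± 0.392) and capg-1 of condensin I (0.874 ± 0.176). The summits of kle-2 and smc-4 were nearer to C29E4.12 and F35G12.7. At capg-2, of condensin II, a peak was present in replicate 1 alone, at 1.22 times its median, and in the pooled list. At dpy-28, which condensin I shares with the dosage compensation complex, the gene began 109 bp downstream of tasp-1 on the same strand. A peak of 23.8 times the median, rank 25, stood at tasp-1, at -3882 bp from dpy-28.

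Of the cohesin genes, smc-3 gave 1.28 ± 0.160 at -163 bp, with mib-1 on the other strand nearer, and a second summit at -825 bp gave 0.599 ± 0.154. The gene of the mitotic kleisin, scc-1, had a peak just short of the threshold: 1.07 times the median in replicate 1, 0.442 times in replicate 2, and a −log10 IDR of 1.81. It was in the pooled list and in that of replicate 1. The gene him-1 had no summit; the strongest ranked peak in its window had a signal of 48.5. It begins 107 bp downstream of mzt-1 on the same strand, a gene with a peak of 1.28 times the median. The summit of that peak was at -980 bp from mzt-1, with enu-3.3 the nearer gene. Both smc-3 and scc-1 counted in the pooled list and in that of replicate 1, and neither did under the nearest gene rule. Condensin and cohesin together had a summit at 6 of 9 genes.

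Of the anaphase promoting complex and its regulators, 4 of 7 genes had a summit, and their multiples spanned the widest ratio of the 9 groups, 0.571 to 11.0. The securin ify-1 (WBGene00002068), the substrate whose loss frees separase, had multiples of 11.8 and 10.1 (11.0 ± 1.21). The peak, chrII:5055168-5055569, had rank 94; the window shown above lies within it, centred at -187 bp from ify-1, and the other gene whose window held it was rpl-22, for a ribosomal protein, on the other strand. The listed subunit genes of the complex itself were far lower, although emb-1, a subunit gene outside the list, is described further on with a stronger peak. At emb-27 the multiple was 1.74 ± 0.501, with the summit at -10 bp from rrf-3. At mat-1 the values were 0.636 and 1.198 (0.917 ± 0.398), with prp-31 nearer, and at emb-30 the peak was 0.571 ± 0.105 with a signal of 78.4, the weakest of the 42. The activator fzy-1, the Cdc20 homologue, and the subunit genes mat-2 and mat-3 had no summit, with ranked peaks of 50.9, 28.0 and 44.7. A conservative summit of signal 121 lay 653 bp downstream of the outermost 5′ end of fzy-1, nearer to F12A10.8. When the 5′ end of any annotated transcript was allowed, fzy-1 had a summit, and 5 of the 7 genes did. The nearest gene rule left 2 of the 7 genes, ify-1 and emb-30, and peaks at or above the median signal left ify-1 and emb-27.

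**Figure D3:**
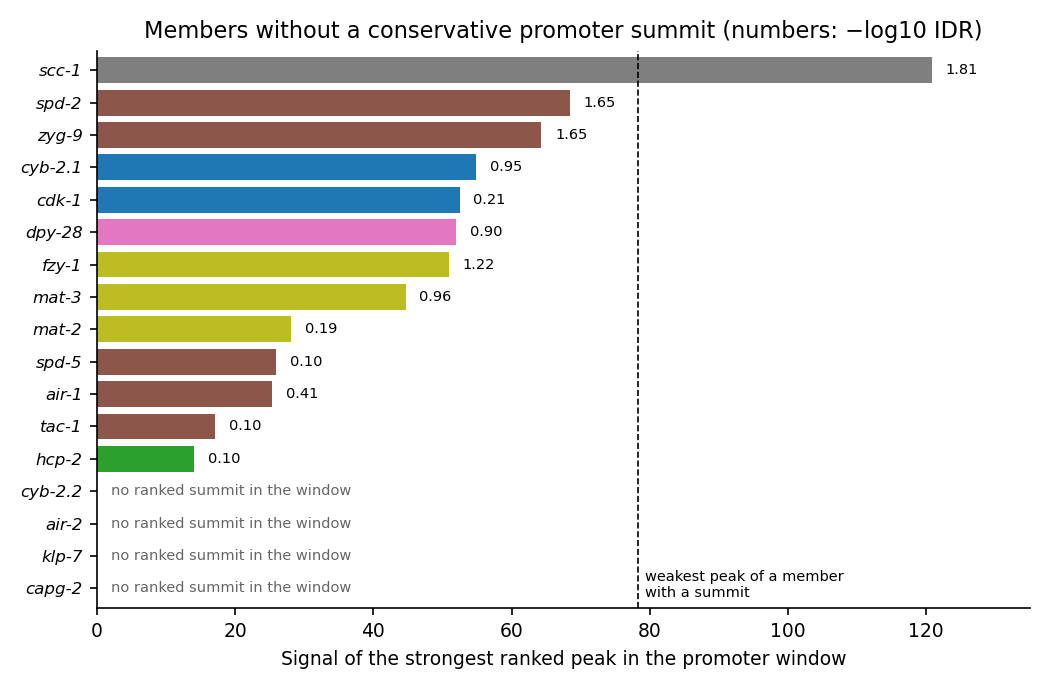
Signal of the strongest ranked peak in the promoter window (horizontal axis) of the 17 members without a conservative summit, coloured by role as in the plot of multiples by replicate, with its −log10 IDR beside each bar. The dashed line is the signal of emb-30, 78.4, the weakest peak that was counted; only scc-1 lies beyond it, and 4 genes have no ranked summit in the window.

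Absence from the conservative list was seldom absence of any ranked peak. The ranked list, however, holds 55700 peaks and is not cut at the IDR threshold. At hcp-2, spd-5 and tac-1 the ranked peak had a −log10 IDR of 0.095, against the 2.00 that the conservative list requires. Of the 17 members without a summit, 13 (76.5%) had a ranked one in the window, with signals of 14.1 to 121 and a median of 50.9, against 33.2% of all genes without a summit, whose median was 30.9. Outside the window, conservative summits lay downstream of the 5′ ends, at most 2971 bp away, at spd-5, fzy-1, cdk-1, klp-7 and zyg-9. Being placed close behind another gene on the same strand, under 500 bp away, was not more frequent among members without a summit (2 of 17) than among those with one (7 of 42) or among all protein-coding genes (19.3%). The gene models used do not annotate operons.

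Most of the members' summits lay close to the gene start, but 8 of 42 (19%) were over 500 bp upstream, against 21% of all genes with a summit. Their median position was -181.5 bp, against -236 bp over all 2636 genes with a summit, and 28 of 42 (66.7%) were within 300 bp upstream, against 54.4%. Only knl-2, emb-30 and tpxl-1 had a summit downstream of the 5′ end. In 28 of the 42 genes (66.7%) the same summit also lay in the window of a gene on the other strand, against 47.2% of all genes with a summit, and in 12 (28.6%) it lay in no other window, against 48.9%. The 5′ end of the member was the nearest in 27 of 42 (64.3%), against 72% of all genes with a summit. Mitotic genes thus shared their peaks with divergent neighbours more often, as a count, than bound genes at large; this difference was not tested.

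**Figure D4:**
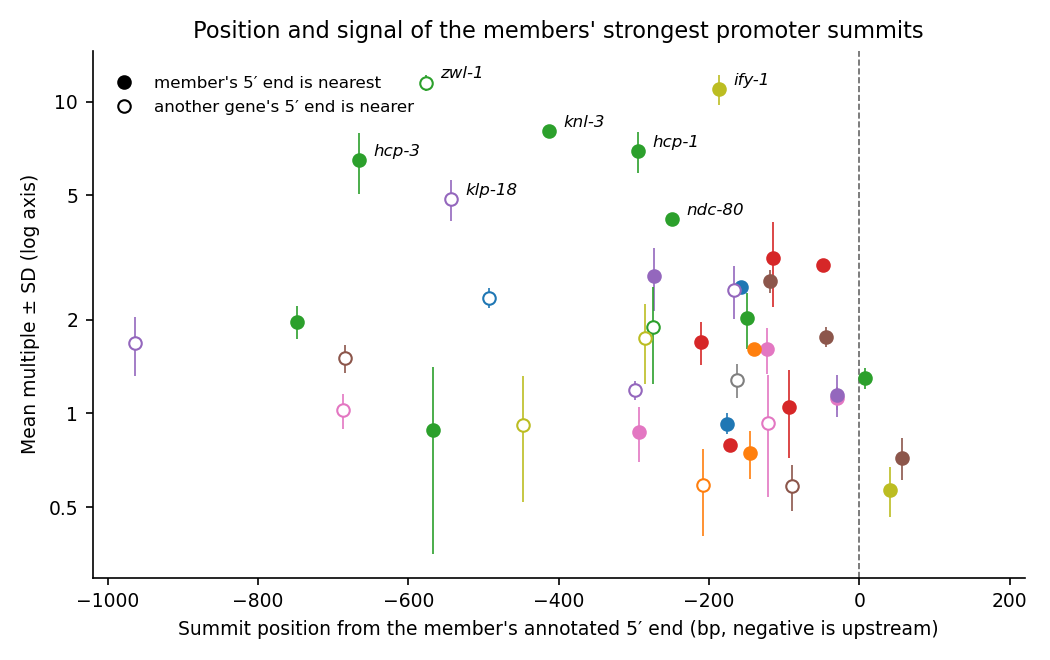
Mean multiple ± SD (vertical log axis, n = 2) of the strongest promoter summit of each of the 42 genes against its position from the annotated 5′ end in bp (horizontal axis, negative is upstream), coloured by role as in the plot of multiples by replicate; filled points are summits nearest to the member's own 5′ end. Among the 7 labelled peaks above 4, zwl-1 and klp-18 are nearer to another gene, and strong peaks are found from -666 to -187 bp.

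The chromosomes contributed unequally. Summits were present at 11 of 15 members on chromosome I, 7 of 12 on II, 10 of 14 on III, 7 of 8 on IV and 7 of 10 on V, against 20.5%, 13.1%, 20.6%, 13.1% and 8.29% of all protein-coding genes on the same chromosomes. On every one of these 5 chromosomes more than 1 in 2 members had a summit.

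Mitotic genes outside the list were examined as a second set of 59, which holds other kinetochore, centrosome, cohesin and cell cycle genes. A summit was present at 27 of them (45.8%), a share that lies between the 71.2% of the members and the 13.2% of all genes, and their median multiple was 1.52. The strongest peaks were those of emb-1, a subunit of the anaphase promoting complex (16.3 ± 0.886), and kbp-4, a kinetochore protein (15.2 ± 1.34); both summits were nearer to another gene, K10D2.5 and rab-18. Next came top-2, which encodes a topoisomerase (5.73 ± 0.313), and wapl-1, whose product releases cohesin (5.21 ± 0.116). Also above the members' median were cls-2, czw-1, ani-1, kbp-1, gpr-2, klp-16, tbg-1, sas-7 and wee-1.3. The Zwilch partner czw-1 gave 3.21 ± 0.0600, so all 3 genes of that complex, zwl-1, czw-1 and rod-1, had a summit, at multiples that differed by more than the spread between replicates.

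**Figure D5:**
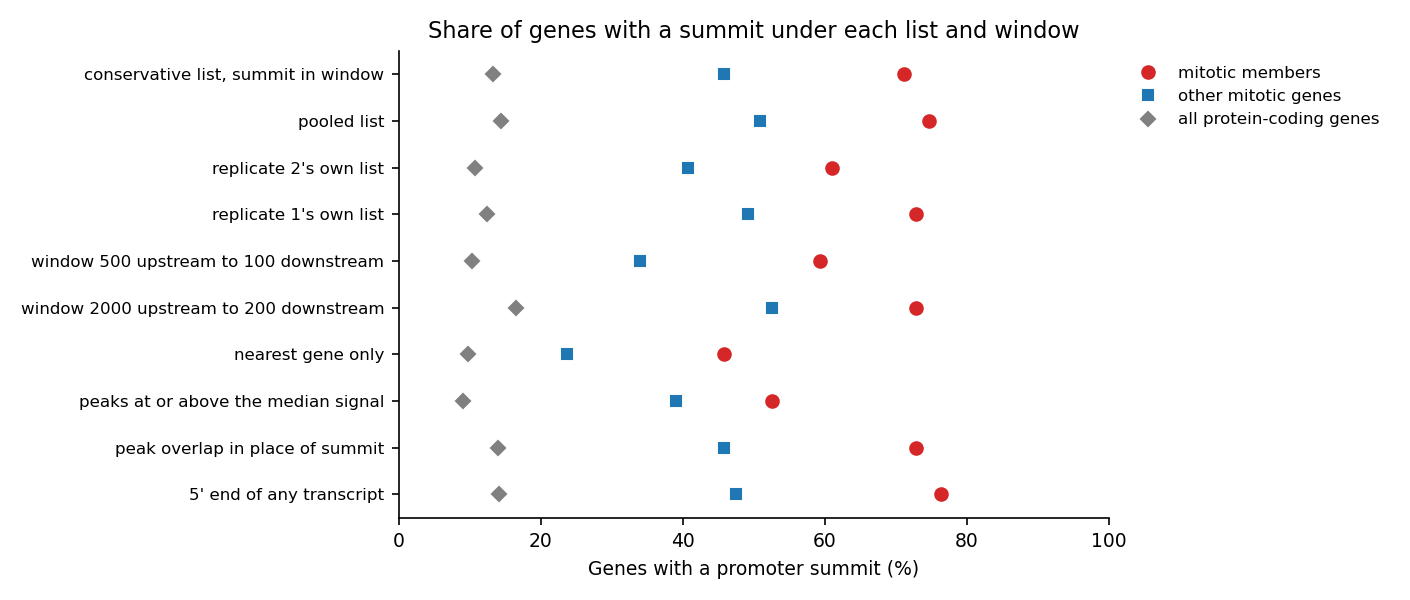
Percentage of genes with a promoter summit (horizontal axis) for the 59 members (red circles), the 59 other mitotic genes (blue squares) and all protein-coding genes (grey diamonds) under each peak list, window and rule for giving summits to genes. The members lie to the right of both other sets under all 10 settings, from 45.8% to 76.3%.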

How the data were processed

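The authors deposited ChIP-seq peak lists on ce11; 7 were used, conservative, pooled and per replicate. No source used here names the aligner or the peak caller. The deposited signal is the caller's enrichment value, with unstated scaling. The deposited score, an integer with a maximum of 1000, tracks the IDR and is at least 830 in the thresholded lists, and the deposited −log10 IDR is capped at 5. The deposited summit offset placed each summit. The 4 signal columns without a sample name were not used.

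Gene models came from Ensembl release 115, and sequence from RefSeq WBcel235. Each replicate's multiple used the overlapping ranked peak with the nearest summit. Shares and medians are descriptions with no test; motif words were searched within 50 bp of the summit. The assignment script was checked on made-up input with known answers. Python 3.11.15, numpy 2.4.6 and matplotlib 3.10.9 were used. Sequencing depth is unknown, so no interval was formed for a single peak. Every member is named; other mitotic genes are named where stronger than the members' median. The members, lists and words were chosen with earlier results of these data known; GAGCGCAC and the strand of GAGCG were added after seeing the windows. Other lists, windows and gene rules were tried as alternatives.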

Additional observations from a re-analysis of the deposited data

How the results depend on the processing

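The count of 42 members was 36 to 43 when 1 replicate's own list was used, 44 in the pooled list, 35 with a window of 500 bp upstream to 100 bp downstream, and 43 with 2000 bp upstream. It was 31 for peaks at or above the median signal, 43 by peak overlap and 45 with the 5′ end of any transcript. It was 27 when summits went to the nearest gene only. All protein-coding genes gave 9.01% to 16.5% over these settings. In all 4 thresholded lists 36 members were present; csc-1, rod-1, sas-6, smc-4, capg-1 and emb-30 were not. The median multiple of 1.65 was 1.43 to 1.74 from 1 replicate alone, 1.94 in the pooled list, 1.38 in the own list of replicate 1, 1.2998 in that of replicate 2 and 1.97 for peaks at or above the median signal. By role, the narrow window left 6 of 11 kinetochore genes, as hcp-3, hcp-4, zwl-1 and rod-1 have distant summits, and the list of replicate 2 alone left 3 of 7 condensin genes. The nearest gene rule left 2 of 7 spindle motor and midzone genes, 3 of 10 centrosome genes, 3 of 7 condensin genes, no cohesin gene, and 2 of 7 of the anaphase promoting complex; the cause was not tested. Peaks at or above the median signal left 1 of 4 passenger complex genes, 3 of 10 centrosome genes, 3 of 7 condensin genes and 2 of 7 of the anaphase promoting complex. Scaled to the median over peaks near promoters, 33 of the 42 members' multiples moved by more than their SD, the median multiple was 1.26, and 24 in place of 31 were above 1. TTCGAA moved to 28.6% of the members' windows with 100 bp on either side of the summit. In windows of 100 bp either side of the summit every member had at least 1 of the 6 words, against 23.1% of summits near any promoter without one. No paired analysis was possible because there is 1 group. Depth is unknown and no control was used, so a promoter without a summit is one where none was detectable at this threshold.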

Other observations

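After the windows had been seen, the longer word GAGCGCAC was searched. It was present in 6 of the 42 members' windows (14.3%), at cyb-3, bir-1, ndc-80, spdl-1, klp-18 and capg-1, against 4.47% of windows at summits near any promoter and 0.0865% of windows of genes without a summit. The direction of the shorter word was also counted after it had been noticed. Read in the direction of the member, CGCTC alone was present in 13 of the 16 windows (81.2%), GAGCG alone in 2 and both in 1. Over all genes with a summit, each read in its own direction, CGCTC alone was present in 533 of 1002 (53.2%). Of the 10 of the 16 members whose own 5′ end is nearest, 9 had CGCTC alone and 1 had both. At summits near any promoter, read in the direction of the nearest gene, CGCTC alone was present in 431 of 764 windows (56.4%). These counts were chosen on the data they describe and were not tested.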
